A study of Mus musculus with 7 samples.

Results

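Transcripts of 10 inducible feedback inhibitors of cytokine and MAP kinase signalling were followed in type 2 innate lymphoid cells (ILC2s) from resting and transplanted mouse hearts. The members were chosen by name: the suppressors of cytokine signalling Socs1, Socs2, Socs3 and Cish, and the dual-specificity phosphatases Dusp1, Dusp2, Dusp4, Dusp5, Dusp6 and Dusp10. All 10 were found among the 55335 identifiers of the deposited table, and all 10 were among the 17015 genes that passed the filter on low counts. ILC2s are tissue-resident lymphocytes without antigen receptors that carry ST2, the receptor for interleukin 33. Cells had been sorted as CD45+, lineage-negative and ST2+ from dissociated hearts. The 3 naive libraries came from hearts that had not been transplanted, and the 4 allograft libraries came from Balb/C hearts in C57BL/6 (B6) recipients on day 7, in a model of acute rejection. Each library is a pool of 4 to 7 hearts, and n counts pools. The labels give no genotype, age or sex for either group, no strain for the naive hearts, and the same time of 7 days for naive hearts as for grafts. They do not separate ILC2s of the donor heart from those of the recipient.

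Cytokine receptors activate JAK kinases, which phosphorylate STAT factors, and STAT factors induce SOCS genes. The SOCS proteins bind phosphotyrosines through an SH2 domain, recruit a ubiquitin ligase through the SOCS box, and so close a negative loop on the receptor. The DUSP proteins of the MAP kinase phosphatase class remove phosphate from ERK, JNK or p38, and many of them are induced by the kinases they switch off. In ILC2s, interleukin 33 acts through NF-kappaB and p38, and interleukin 7, interleukin 2 and TSLP act through JAK and STAT5, so both families sit downstream of the main ILC2 stimuli.

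Total counts lay between 29107326 and 53044907 per library. Naive replicate 2 stood apart from the other 6 libraries. The sum of 11 ILC2 markers there was 1147 CPM (counts scaled to the deposited total of the library), while naive replicate 1 held 10720 CPM, naive replicate 3 held 14660 CPM and the allografts held 11150 to 11800 CPM. In that library Il1rl1, which encodes ST2, was at 6.79 CPM, and the common leukocyte gene Ptprc was at 11.7 CPM. Mitochondrial transcripts took 26.5% of its counts, against 2.04% to 3.11% in the other 6 libraries, and the 5 kidney tubule genes summed to 8769 CPM, against 8.69 to 80.9 CPM. Naive replicate 3 stood apart in another respect: 15 immediate early and stress genes known to respond to tissue dissociation summed to 37980 CPM there, against 9567 and 10390 CPM in the other naive libraries and 13150 to 17010 CPM in the allografts. Not every gene of this list followed the sum. Egr1, Egr2, Atf3 and Ier3 were highest in naive replicate 2 (Egr1 at 894 CPM, against 501 CPM in naive replicate 3). Hspa1a was highest in allograft replicate 1, and the other genes of the list were highest in naive replicate 3. Whether naive replicate 2 holds sorted heart ILC2s, as its label says, cannot be settled from these values, so naive replicate 2 below means the library with that label. The fold changes of the 10 genes and the medians of the pathway lists are given with all 7 libraries and with naive replicate 2 or 3 left out. In pooled RNA, fewer cells of a type and less RNA per cell cannot be told apart.

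None of the 10 genes passed an adjusted p of 0.05 between allograft and naive ILC2s in edgeR's quasi-likelihood test over all genes, where 0.0353% of genes passed. At an unadjusted p under 0.05 there were 3 members, Dusp2 and Dusp4 higher and Socs3 lower in allografts, where 10.3% of all genes were at that level (6.41% higher and 3.86% lower). DESeq2 called 1 member, Socs3, where it called 6.4% of all genes (2.09% lower). In edgeR fits with other settings no member passed either, where 0.0235% of genes passed with DESeq2 size factors, 0.0142% without the filter on low counts, 0.0342% with a mean of at least 50 counts and 0.568% without naive replicate 1. The same 3 genes were the ones whose groups did not overlap in CPM. Dusp2 and Dusp4 were higher in all 4 allografts than in any naive pool, as were 12.5% of genes, and Socs3 was lower in all 4, as were 2.15% of genes. TMM-scaled CPM separated the same members, at backgrounds of 10.6% and 3.15%. The median log2 fold change was -0.01 over the 10 members and -0.01 over all genes tested.

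**Figure D1:**
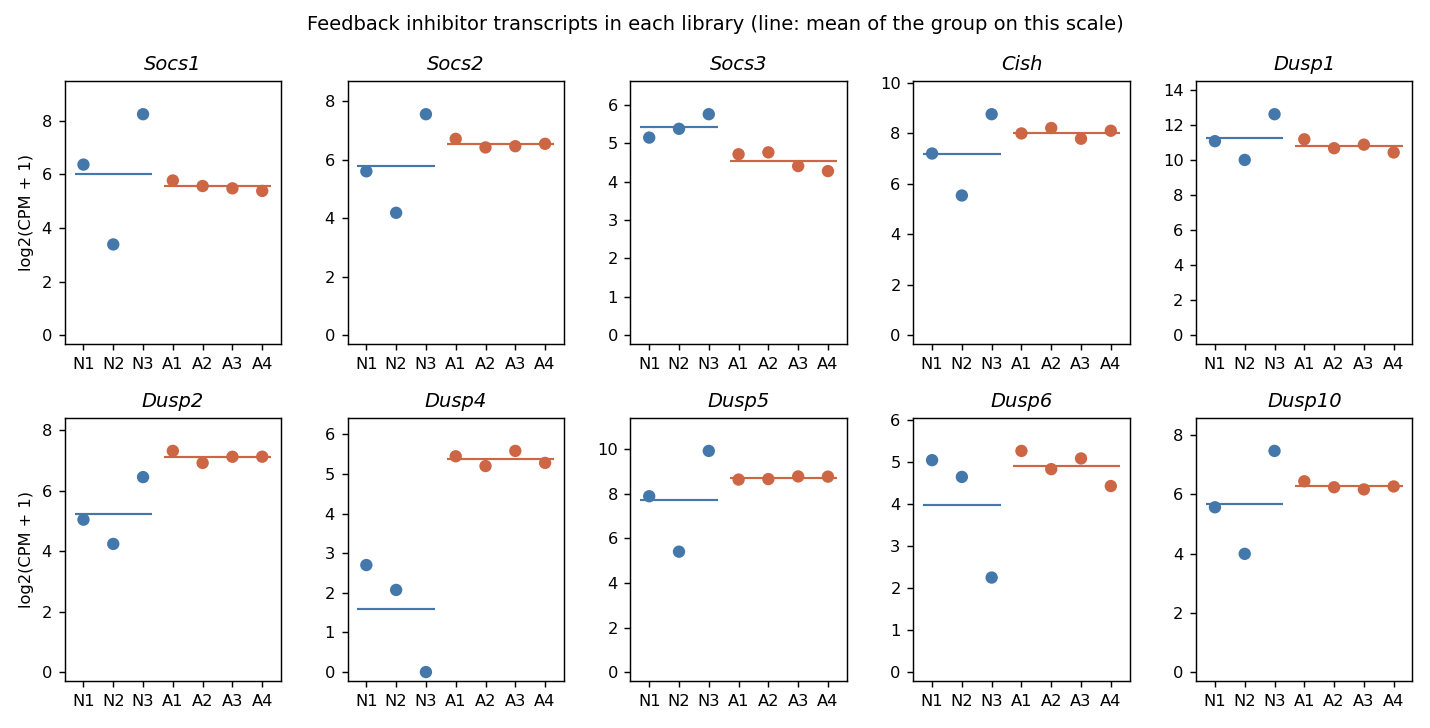
CPM of the 10 genes on a log2(CPM + 1) axis for naive libraries N1 to N3 (blue) and allograft libraries A1 to A4 (orange), with a line at the mean of each group on that scale. The naive points are spread wide for most genes and the allograft points lie close together, and the groups separate for Dusp2, Dusp4 and Socs3.

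Dusp4 (chr8:34807297-34819894, GRCm38), a nuclear phosphatase that acts on ERK and other MAP kinases, had the largest fold change of the members. It was at 5.51, 3.21 and 0 CPM in naive replicates 1 to 3 and at 42.6, 35.8, 46.9 and 37.9 CPM in allograft replicates 1 to 4. The 4 allograft libraries held similar levels, far above each naive library, and the absence of counts in naive replicate 3 allows up to 0.0688 CPM (3 counts, counting error only). The log2 fold change was 3.58 (SE 1.52, unadjusted p = 0.0479, adjusted p = 0.477 in edgeR). Leaving out naive replicate 2 gave 3.87 (adjusted p = 0.290), and leaving out naive replicate 3 gave 3.00 (SE 0.344, adjusted p = 0.0666).

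Dusp2 (chr2:127336159-127338376), also called PAC-1, is a nuclear ERK phosphatase that activated lymphocytes induce. Its level was 31.8, 17.8 and 86.0 CPM in naive replicates 1 to 3 and 158, 119, 138 and 138 CPM in allograft replicates 1 to 4. All 4 allografts lay above the highest naive library, naive replicate 3. In edgeR the log2 fold change was 1.49 (SE 0.485, adjusted p = 0.341). Leaving out naive replicate 2 gave 1.17 (adjusted p = 0.227), and leaving out naive replicate 3 gave 2.26 (adjusted p = 0.0787).

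Socs3 (chr11:117966079-117970047), which blocks receptors of the gp130 class and JAK kinases, was lower in the allografts. It was at 34.3, 40.4 and 52.9 CPM in naive replicates 1 to 3 and at 25.2, 26.1, 20.1 and 18.3 CPM in allograft replicates 1 to 4. Unlike most members, Socs3 was not low in naive replicate 2, so its naive values stayed within 1.54 times of each other in CPM and 1.74 times in TMM-scaled CPM. The log2 fold change was -1.15 (SE 0.364, adjusted p = 0.332 in edgeR), and in DESeq2 it was -1.38 with an adjusted p of 0.0125, so the call depends on the tool. In edgeR it was -1.01 when naive replicate 2 was left out (adjusted p = 0.199) and -1.06 when naive replicate 3 was left out (adjusted p = 0.216). The dissociation response list, which does not hold Socs3 or Dusp1 here, had a median log2 fold change of -0.67, with 11 of its 15 genes below 0. Its median was -0.89 with naive replicate 2 left out, with 12 genes below 0. With naive replicate 3 left out it was 0.03, with 7 below 0. Over all genes the medians were -0.01, 0.23 and 0.05 in these 3 fits. The part of this list in the Socs3 value was not tested. The list held 0 genes past the adjusted threshold in edgeR, 4 lower and 0 higher at an unadjusted p under 0.05, and 1 lower in DESeq2.

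A promoter window was available from RefSeq (GRCm38.p6) for 8 of the 10 members, the exceptions being Socs2 and Dusp4. Each window runs from 250 bases before the transcription start to 50 bases after it. Both strands were searched for the STAT motif TTCNNNGAA, the cyclic AMP response element TGACGTCA, the AP-1 motif TGANTCA, the NF-kappaB consensus and the CArG box of serum response factor. Among 32851 windows of all genes, these were held by 8.3%, 1.79%, 7.81%, 4.51% and 1.63%, and the matches in the members did not overlap each other. Of the 8 members, 4 held any of them, and the stretches with matches are shown 5′ to 3′ on the strand of the gene, with the motif in capitals, because they are the only matches in these windows.
Cish, chr9:107296654-107296683, + strand, TTCNNNGAA at positions 1 to 9 and 12 to 20 from the start: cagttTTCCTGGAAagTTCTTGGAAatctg
Socs3, chr11:117969487-117969546, - strand, TTCNNNGAA at -154 to -146: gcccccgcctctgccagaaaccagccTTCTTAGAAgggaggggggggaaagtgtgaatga
Dusp1, chr17:26508582-26508641, - strand, TGACGTCA at -143 to -136: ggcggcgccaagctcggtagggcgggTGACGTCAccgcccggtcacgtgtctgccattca
Dusp5, chr19:53529043-53529102, + strand, CArG boxes at -82 to -73 and -72 to -63: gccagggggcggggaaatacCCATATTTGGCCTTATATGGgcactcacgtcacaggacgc

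The STAT motif was thus matched in 2 SOCS members, once in Socs3 and as a close pair in Cish. The matches in the DUSP members were of other kinds, and no member matched TGANTCA or the NF-kappaB consensus. Socs1, Dusp2, Dusp6 and Dusp10 had no match of the 5 motifs in these windows. A match is a description of the letters and not evidence of binding.

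A group of 6 members, Socs1, Socs2, Cish, Dusp1, Dusp5 and Dusp10, followed a single order across the naive libraries. Each was highest of all 7 libraries in naive replicate 3 and lowest in naive replicate 2 in CPM. Socs3 was also highest in naive replicate 3 and Dusp2 also lowest in naive replicate 2, each without the other extreme. On the TMM scale 2 of these extremes changed place. Socs3 was then highest in naive replicate 2 (55.8, against 52.0 in naive replicate 3). Dusp1 was then lowest in allograft replicate 4 (1312, against 1425 in naive replicate 2). Of all genes tested, 10.5% shared both extremes, 21.5% were highest in naive replicate 3 and 31.3% were lowest in naive replicate 2. The order is that of the ILC2 marker sum, 14660 CPM in naive replicate 3 and 1147 CPM in naive replicate 2. Every marker in that sum was lowest in naive replicate 2. Id2, Rora, Gata3 and Il7r were highest of all 7 libraries in naive replicate 3, while Ptprc, Thy1 and Il5 were highest in an allograft. Il1rl1, Klrg1, Areg and Il13 were higher in naive replicate 1 than in naive replicate 3. The highest dissociation sum was also in naive replicate 3. The part of either sum in the levels was not tested.

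Dusp1 (MKP-1, chr17:26505590-26562128), an immediate early phosphatase for p38 and JNK, was the most abundant member. It was at 2163, 1031 and 6289 CPM in naive replicates 1 to 3 and at 2331, 1638, 1886 and 1385 CPM in allograft replicates 1 to 4. Naive replicate 3 lay far above all other libraries, and the other naive libraries overlapped the allografts. Its log2 fold change of -0.92 (SE 0.585, adjusted p = 0.711 in edgeR) became -0.01 with naive replicate 3 left out and -1.28 with naive replicate 2 left out (unadjusted p = 0.0242, adjusted p = 0.185).

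Socs1 (chr16:10782240-10785536), which inhibits JAK kinases directly and restrains interferon and common gamma chain signals, was at 81.4, 9.47 and 302 CPM in naive replicates 1 to 3. In allograft replicates 1 to 4 it was at 53.6, 46.4, 43.6 and 40.7 CPM. The allografts lay between the lowest naive library and the other 2, so the groups overlapped only through naive replicate 2. Its log2 fold change was -1.57 (SE 0.834, adjusted p = 0.619 in edgeR). With naive replicate 2 left out, Socs1 was lower in all 4 allografts, as Socs3 was too and as were 7.49% of genes (21.6% were higher in all 4). The fold change was then -2.12 on the log2 scale (SE 0.488, adjusted p = 0.0753), in a fit where 3.1% of all genes passed. With naive replicate 3 left out it was -0.04 (adjusted p = 0.984).

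Dusp5 (chr19:53529109-53542431), a nuclear phosphatase specific for ERK, was at 237, 41.4 and 973 CPM in naive replicates 1 to 3 and at 398, 405, 439 and 436 CPM in allograft replicates 1 to 4. The allografts differed by at most 1.1 times and sat inside the naive range. In edgeR the log2 fold change was -0.06 (SE 0.794, adjusted p = 0.994). It was -0.59 with naive replicate 2 left out and 1.51 with naive replicate 3 left out.

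Dusp10 (chr1:184013302-184075636), a phosphatase for p38 and JNK known to limit cytokine output downstream of interleukin 33 in memory T helper cells, was at 46.3, 14.9 and 176 CPM in naive replicates 1 to 3. It was at 86.0, 74.7, 71.0 and 76.1 CPM in allograft replicates 1 to 4. As for Dusp5, the allografts lay inside the naive range, and the log2 fold change of -0.13 (SE 0.658, adjusted p = 0.982 in edgeR) became -0.60 with naive replicate 2 left out and 1.18 with naive replicate 3 left out.

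Cish (chr9:107296026-107302784) and Socs2 (chr10:95385362-95417180) are classical STAT5 targets that act on receptors of the common gamma chain and growth hormone type. Cish was at 145, 45.3 and 429 CPM in naive replicates 1 to 3 and at 253, 294, 219 and 272 CPM in allograft replicates 1 to 4. Socs2 was at 47.6, 17.2 and 187 CPM in the naive libraries and at 104, 84.4, 87.0 and 92.1 CPM in the allografts. In both genes every allograft lay above naive replicates 1 and 2 and below naive replicate 3. In edgeR the log2 fold change of Cish was 0.24 (SE 0.599, adjusted p = 0.954), and that of Socs2 was 0.04 (SE 0.648, adjusted p = 0.996). With naive replicate 2 left out they were -0.21 for Cish and -0.42 for Socs2, and with naive replicate 3 left out 1.30 and 1.34.

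Dusp6 (chr10:99263231-99267489), a cytoplasmic phosphatase specific for ERK, showed neither pattern. It was at 32.1, 24.1 and 3.76 CPM in naive replicates 1 to 3 and at 37.6, 27.5, 33.0 and 20.6 CPM in allograft replicates 1 to 4. It was lowest in naive replicate 3, the library in which Dusp1, Dusp5 and Dusp10 were highest, and the other naive libraries lay among the allografts. Its log2 fold change was 0.31 (SE 0.713, adjusted p = 0.947 in edgeR), and it became 0.70 with naive replicate 2 left out and -0.18 with naive replicate 3 left out.

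**Figure D2:**
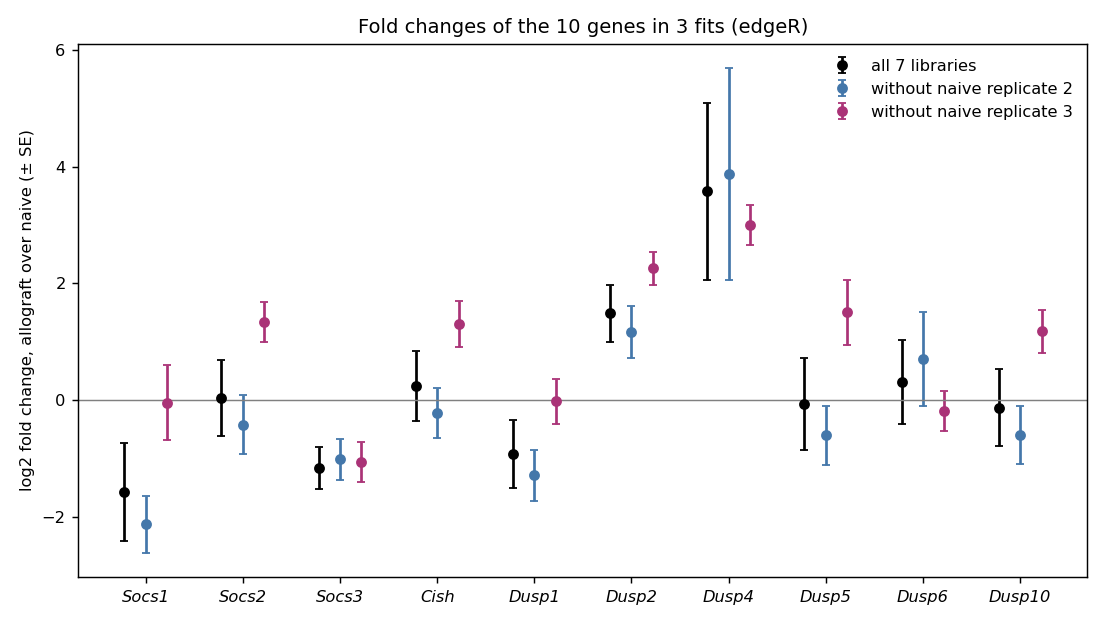
Log2 fold change (allograft over naive, edgeR) of each gene with its SE as bars, for all 7 libraries (black) and with naive replicate 2 (blue) or naive replicate 3 (purple) left out. Dusp2 and Dusp4 stay above 0 and Socs3 below 0 in the 3 fits, while Socs2, Cish, Dusp5, Dusp6 and Dusp10 lie on both sides of 0.

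Naive replicates 2 and 3 thus moved the values of most members in opposite directions. Without naive replicate 3, 7 members were at an unadjusted p under 0.05, where 16.7% of all genes were, and none passed after adjustment, where 0.0372% did. Of these 7, Socs2, Cish, Dusp2, Dusp4, Dusp5 and Dusp10 were higher (9.32% of all genes) and Socs3 lower (7.36%). The same 7 did not overlap between the groups in CPM, at backgrounds of 22.5% higher and 7.21% lower. Without naive replicate 2, 4 members were at that level (Dusp2 higher; Socs1, Socs3 and Dusp1 lower), where 20.2% of all genes were (15.6% higher and 4.67% lower). The median log2 fold change of the 10 members was 1.24 with naive replicate 3 left out and -0.50 with naive replicate 2 left out, while that of all genes was 0.05 and 0.23.

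For most of these genes the naive libraries differed more than for the median gene, and the allografts less. The genes compared were not matched to the members in level. The highest naive CPM exceeded the lowest by a median of 9.46 times over the 9 members counted in all 7 libraries, and by 4.76 times over 10495 genes counted in all 7, a value that 8 of the 9 exceeded. It ranged from 1.54 times in Socs3 to 31.8 times in Socs1. Among the allografts the corresponding medians were 1.32 times for the 9 members and 1.63 times for all such genes. Of the 9, 7 lay below the median of all such genes, and Dusp1 and Dusp6 lay above it. The members ranged from 1.1 times in Dusp5 to 1.83 times in Dusp6.

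**Figure D3:**
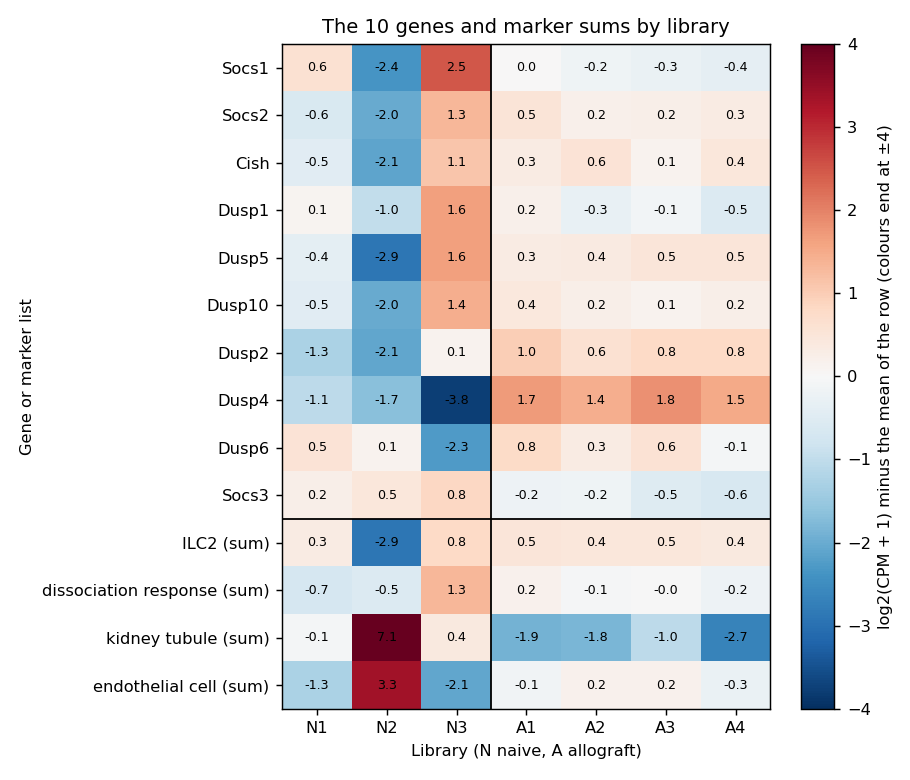
Log2(CPM + 1) of the 10 genes (above the line) and of 4 summed marker lists (below it) in each library, each row centred on its own mean, with colours that end at ±4. The 6 genes at the top share the low naive replicate 2 and high naive replicate 3 column with the ILC2 sum. Socs3 shares only the high naive replicate 3, and Dusp4 and Dusp6 are lowest in naive replicate 3. Kidney tubule and endothelial sums are highest in naive replicate 2.

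Ratios of members within a library do not depend on how libraries are scaled to each other. Dusp2 stood at 0.0147, 0.0173 and 0.0137 times Dusp1 in naive replicates 1 to 3 and at 0.0676, 0.0729, 0.0730 and 0.0996 times Dusp1 in allograft replicates 1 to 4. The 3 naive libraries, which differed by 6.1 times in Dusp1 itself, held nearly the same Dusp2 to Dusp1 ratio, and all 4 allografts were well above it. This pair was singled out after its values were seen and is given without a test. Among the genes with an average log2 CPM of at least 5, the ratio to Dusp1 was higher in all 4 allografts for 18.4%, and for 5 of the 7 other members in that set. In the same way Dusp4 stood at 0.00254, 0.00311 and 0 times Dusp1 in naive libraries and at 0.0183 to 0.0273 times Dusp1 in allografts, and Cish at 0.0439 to 0.0682 times Dusp1 in naive libraries and 0.109 to 0.197 times Dusp1 in allografts.

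Socs2 and Dusp10 kept a nearly constant ratio in the 7 libraries. Socs2 was at 1.03, 1.15 and 1.06 times Dusp10 in naive replicates 1 to 3 and at 1.21, 1.13, 1.23 and 1.21 times Dusp10 in allograft replicates 1 to 4, although the genes varied by 10.9 and 11.8 times among the naive libraries. The groups overlapped in this ratio only through naive replicate 2, and the other naive libraries lay below every allograft. The Cish to Socs2 pair was less close, with Socs2 at 0.327 to 0.435 times Cish in naive and 0.288 to 0.410 times Cish in allograft libraries. Socs1 did not keep step with them. It was at 0.560, 0.209 and 0.703 times Cish in naive replicates 1 to 3 and at 0.1495 to 0.2121 times Cish in the allografts, so naive replicate 2 resembled the allografts here.

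**Figure D4:**
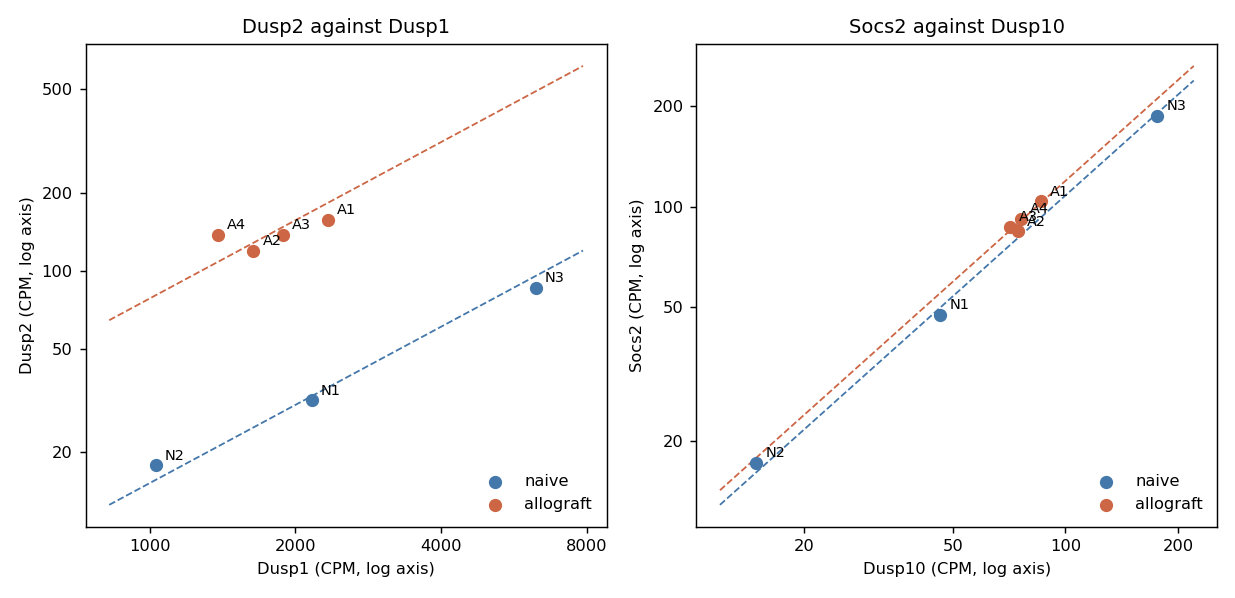
CPM of Dusp2 against Dusp1 (left) and of Socs2 against Dusp10 (right) on log axes, 1 point per library, with dashed lines at the mean ratio of the naive (blue) and allograft (orange) libraries. The 4 allografts lie on a higher line than the 3 naive libraries for Dusp2 against Dusp1, and all 7 libraries lie along nearly the same line for Socs2 against Dusp10.

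Of the 45 ratios between members, 24 did not overlap between the groups. All 9 that involve Dusp4 and 6 of the 8 others that involve Dusp2 were among them, as were 9 of the 28 that involve neither. Those 9 paired Socs1 with Socs2, Dusp5 or Dusp10, Dusp1 with Socs2, Cish, Dusp5 or Dusp10, and Socs3 with Cish or Dusp6. The ratio of Socs1 to Socs2 was separated by little, with 0.551 in naive replicate 2 and 0.549 in allograft replicate 2. Over 12194391 pairs of 4939 genes with an average log2 CPM of at least 5, 13.7% of ratios did not overlap, and of the 28 pairs of the 8 members in that set 14 did not. With naive replicate 2 left out, the 24 ratios stayed apart. Those of Dusp2 to Dusp5, Socs2 to Dusp10, Dusp1 to Dusp6, and Socs1 to Socs3, Cish, Dusp1 or Dusp6 then separated as well. The share over all pairs of genes was not computed without that library. The pairs share their members and are not independent of each other.

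Levels between genes were compared as FPKM, which divides counts by gene length as well as library size. In the allografts the order was Dusp1 at 472 ± 104 (SD, n = 4), Dusp5 at 147 ± 7.92, Dusp2 at 59.6 ± 6.54, Cish at 34.9 ± 4.28 and Dusp10 at 21.9 ± 1.73 FPKM. Socs1 followed at 13.7 ± 1.59, Dusp4 at 12.9 ± 1.58, Socs2 at 8.31 ± 0.739, Dusp6 at 8.17 ± 2.00 and Socs3 at 6.69 ± 1.12 FPKM. Socs1 and Dusp4 overlapped, and so did Socs2, Dusp6 and Socs3, while the 5 most abundant members and the step from Dusp10 to Socs1 did not overlap with their neighbours. The naive means ran from 845 ± 735 FPKM (SD, n = 3) for Dusp1 and 149 ± 175 FPKM for Dusp5 to 0.941 ± 0.884 FPKM for Dusp4, with SDs near or above the mean in most genes. Ranks were steady within each library for some genes only. Dusp1 ranked 1 and Dusp5 ranked 2 among the members in all 7 libraries. Dusp2 ranked 5, 4 and 6 in naive replicates 1 to 3 and 3 in every allograft. Dusp4 ranked 10 in every naive library and 6 or 7 in the allografts, and Socs1 ranked 3, 8 and 3 in naive replicates 1 to 3 and 6 or 7 in the allografts. Socs3 ranked 7, 3 and 8 and Dusp6 ranked 8, 5 and 9 in naive replicates 1 to 3, and both ranked 8 to 10 in the allografts. Among all genes with FPKM above 0, Dusp1 was above 99.2% to 99.8% of genes in every library. The deposited FPKM used the merged length of all annotated exons, which is 9531 bases for Socs2 and 6419 bases for Cish but 2003 to 3311 bases for the other members. The rank of Socs2 and Cish would be higher if shorter transcripts gave most of the reads.

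The use of strand in counting is not given in the sources used here, so reads of overlapping genes on the opposite strand cannot be told apart for 4 members. The largest such overlaps were AC137853.2 at Dusp5, with 19209 counts against 118159 counts of Dusp5 over the 7 libraries, and 1700056E22Rik at Dusp10, with 2346 counts against 22141. At Dusp1, Ergic1 had 8340 counts against 708887 of Dusp1, and at Cish, Gm17040 had 142 against 65966.

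For each member, the genes with the most similar profile were sought by the root mean square difference of centred log2 CPM over the 7 libraries. The search covered 4939 genes with an average log2 CPM of at least 5, a set without Dusp4 and Dusp6. Dusp10 and Socs2 were each other's nearest gene, at 0.092, with Csrnp1 second for both (0.0995 from Socs2 and 0.117 from Dusp10). The nearest genes to Dusp5 were Nfkbia, the NF-kappaB inhibitor (0.167), and the kinase gene Sik1 (0.174). Those to Cish were Mvb12b (0.126) and Ifrd1 (0.138), and those to Dusp1 were Rbm7 (0.166) and Abt1 (0.205). Socs3 was nearest to Chmp3 (0.151) and Neu1 (0.182), Dusp6 to Psmc5 (0.163) and Avpi1 (0.216), and Dusp2 to Dnaaf2 (0.211) and the class I gene H2-K2 (0.228). Dusp4 was nearest to the interferon-inducible genes Epsti1 (0.391) and Ifi27l2a (0.555). Dusp4 had 0 counts in naive replicate 3, so its value there came from the small count added before taking logs. Socs1 was nearest to 4930503L19Rik (0.368) and Smg1 (0.388), so that Socs1 and Dusp4 had no neighbour as close as those of the other members.

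The rest of the 2 families and the pathways around them were read from the same fit. Of 111 tested genes in 7 lists, none passed an adjusted p of 0.05 in edgeR, and at an unadjusted p under 0.05 there were 4 higher and 7 lower, which is 9.91% against the 10.3% of all genes. DESeq2 called 5 of the 111, a smaller share than the 6.4% of all genes that it called: Stat5a and Pim2 higher, and Ghr, Irf1 and Egr1 lower. Pim2 and Irf1 are named here after their values were seen. The 4 other SOCS genes had a median log2 fold change of 0.01 with none at an unadjusted p under 0.05, and medians of 0.48 with naive replicate 2 left out and 0.61 with naive replicate 3 left out, with 2 higher and 2 lower each time. Socs4 was at 5.13, 9.87 and 77.0 CPM in naive replicates 1 to 3 and 23.5 to 32.5 CPM in the allografts (log2 fold change -0.29, adjusted p = 0.963), with naive replicate 3 highest of all 7 libraries, and the fold change was 1.48 with that library left out. Socs7 had the smallest p of the 4 (log2 fold change 1.46, SE 1.18, adjusted p = 0.776), and 3.26 with naive replicate 3 left out.

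Of the other DUSP genes, 19 were in the table and 16 were tested, and their median log2 fold change was -0.83 with 7 higher and 9 lower. Without naive replicate 2 the median was 0.93, with 10 higher and 6 lower, and without naive replicate 3 it was -0.67, with 6 higher and 10 lower. Dusp23, a small atypical phosphatase, was at 15.4, 12.9 and 9.22 CPM in naive replicates 1 to 3 and at 38.4, 33.6, 33.3 and 27.7 CPM in the allografts, without overlap (log2 fold change 1.18, SE 0.423, adjusted p = 0.355 in edgeR). Dusp15 was at 3.39, 20.9 and 3.42 CPM in naive replicates 1 to 3 and at most 0.454 CPM in the allografts (log2 fold change -5.31, adjusted p = 0.310), and the fold change was -3.45 with naive replicate 2 left out. Dusp14 passed without naive replicate 2 (adjusted p = 0.0227 in edgeR) and was named after its values were seen. It had 0 counts in naive replicates 1 and 3, 20.1 CPM in naive replicate 2 and 15.1 to 22.5 CPM in the allografts, so naive replicate 2 alone placed the naive group among the allografts.

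Upstream of the SOCS genes, the 11 JAK and STAT genes had a median log2 fold change of 0.61, and all 11 had a fold change above 0. Without naive replicate 2 the median was 0.19 with 7 above 0, and without naive replicate 3 it was 1.04 with all 11 above 0. Of all genes tested, 49.42% were above 0 with all libraries, 58.67% without naive replicate 2 and 51.74% without naive replicate 3. Their medians were -0.01, 0.23 and 0.05, so without naive replicate 2 the list lay near all genes. The same shares apply to the higher and lower counts of the other lists. Stat5a, a STAT factor used by interleukin 2 and interleukin 7 receptors, was at 22.02, 7.715 and 18.58 CPM in naive replicates 1 to 3 and at 36.5, 76.4, 67.3 and 63.8 CPM in allograft replicates 1 to 4. The allografts were all above the naive libraries (log2 fold change 1.79, SE 0.418, unadjusted p = 0.0031, adjusted p = 0.161 in edgeR, 0.00126 in DESeq2). Its known targets Cish and Socs2 had log2 fold changes of 0.24 (SE 0.599) and 0.04 (SE 0.648) in the same fit. These were 1.30 and 1.34 with naive replicate 3 left out and -0.21 and -0.42 with naive replicate 2 left out. Whether they followed Stat5a was not tested. Jak2 had the highest mean FPKM of the list, 44.2 in allografts and 28.4 in naive libraries. It was at 185, 15.6 and 285 CPM in naive replicates 1 to 3 and at 173 to 311 CPM in the allografts (log2 fold change 0.61, SE 0.726, adjusted p = 0.869), and the groups overlapped. With naive replicate 2 left out this fold change was 0.07, and with naive replicate 3 left out it was 1.30. The 21 cytokine receptor chains had a median log2 fold change of 0.09, with 12 higher and 9 lower. Their direction turned with the library left out, to -0.28 (8 higher, 13 lower) for naive replicate 2 and 0.52 (17 higher, 4 lower) for naive replicate 3. Among them Ghr, the growth hormone receptor, was at 2.64, 141 and 41.6 CPM in naive replicates 1 to 3 and at most 0.412 CPM in the allografts (log2 fold change -9.75, adjusted p = 0.161 in edgeR, and -7.84 with naive replicate 2 left out). Il2rg, the common gamma chain, had a log2 fold change of 0.56 (adjusted p = 0.896), and of 0.01 with naive replicate 2 left out.

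On the MAP kinase side, the 24 kinases and RAS genes had a median log2 fold change of -0.16, with 10 higher, 14 lower and none at an unadjusted p under 0.05. It was -0.21 with naive replicate 2 left out and -0.02, with 12 higher and 12 lower, with naive replicate 3 left out. Mapk9, which encodes the JNK2 kinase, had the smallest p (log2 fold change -0.96, SE 0.433, adjusted p = 0.518), at 42.83, 17.96 and 57.14 CPM in naive replicates 1 to 3 and 15.8 to 27.7 CPM in the allografts. Map3k8, the kinase TPL2 that feeds ERK from NF-kappaB signals, was at 322, 52.5 and 624 CPM in naive replicates 1 to 3 and at 849, 861, 861 and 751 CPM in the allografts (log2 fold change 1.25, SE 0.645, adjusted p = 0.602), and the fold change was 0.75 with naive replicate 2 left out and 2.07 with naive replicate 3 left out. The 20 other feedback inhibitors had a median of -0.20, with 8 higher and 12 lower. Leaving out naive replicate 3 turned it to 0.29, with 12 higher and 8 lower, and leaving out naive replicate 2 gave -0.47, with 7 higher and 13 lower. Ptpn6, which encodes SHP-1, was at 20.70, 20.99 and 5.162 CPM in naive replicates 1 to 3 and at 63.4, 52.6, 67.5 and 45.0 CPM in the allografts, without overlap (log2 fold change 1.58, SE 0.592, adjusted p = 0.388). Spry2, an inhibitor of RAS and ERK signalling, was at 30.9, 25.8 and 482 CPM in the naive libraries and 73.0 to 100.1 CPM in the allografts. For Spry2 a log2 fold change of -1.14 (adjusted p = 0.776) turned to 1.34 with naive replicate 3 left out.

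Among 15 tested genes induced by STAT or ERK signalling, 8 were higher and 7 lower, with a median of 0.01. The median was 0.96 (9 higher, 6 lower) with naive replicate 3 left out and -0.11 (7 higher, 8 lower) with naive replicate 2 left out. Egr1, an immediate early ERK target, was at 153, 894 and 501 CPM in naive replicates 1 to 3 and at 107, 119, 94.7 and 134 CPM in the allografts, all below the naive libraries (log2 fold change -2.56, SE 0.656, adjusted p = 0.197 in edgeR, 0.0121 in DESeq2). It was highest in naive replicate 2, and with that library left out the log2 fold change was -1.59. Fos, at 1917 to 2595 CPM in the allografts, overlapped the naive libraries (log2 fold change -1.13, adjusted p = 0.579, and -0.50 with naive replicate 3 left out). Without naive replicate 2 the genes of this list past the threshold were Irf1 (lower, adjusted p = 0.0437), Egr3 (higher, 0.0450) and Etv5 (higher, 0.0433), named after their values were seen. Egr3 and Etv5 rested on at most 0.0377 CPM in naive replicates 1 and 3.

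**Figure D5:**
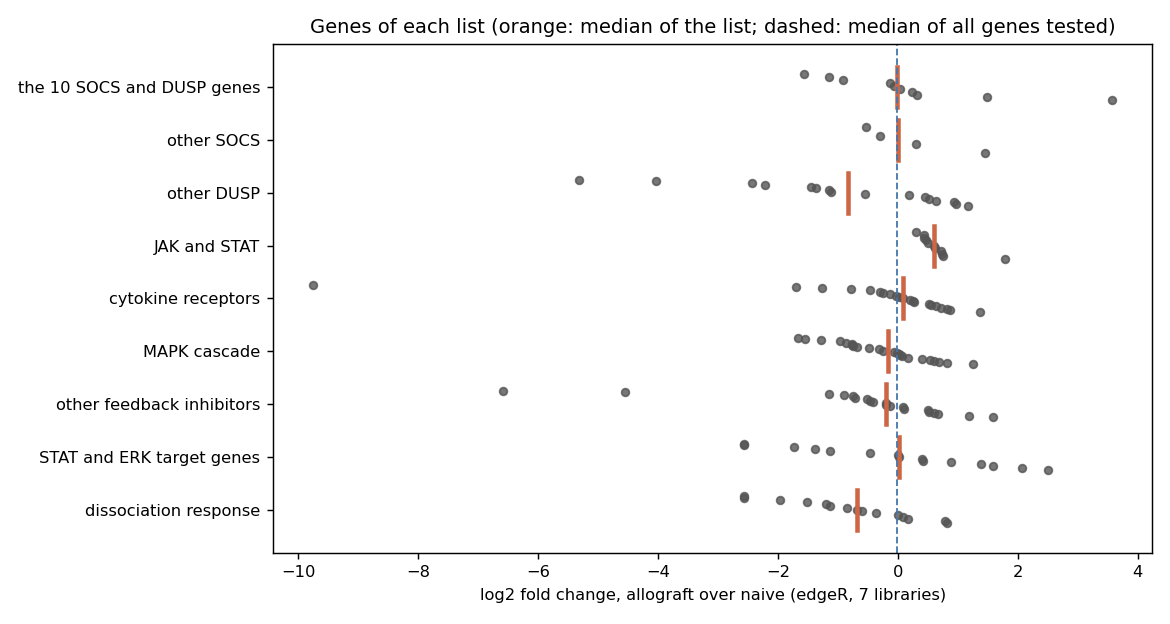
Log2 fold change (allograft over naive, edgeR, 7 libraries) of each tested gene in 9 lists, with the median of the list in orange and the median of all genes tested dashed. The 10 SOCS and DUSP genes centre on the dashed line with Dusp4 at 3.58 and Socs1 at -1.57 as extremes, and the JAK and STAT genes all lie to its right.

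Markers of other cell types differed between the groups and libraries, and their part in the values above was not tested. In the naive libraries the 6 T cell markers lay between 8.64 and 169 CPM in sum, against 185 to 227 CPM in the allografts. Most of these allograft sums was Cd3g, at 175 to 219 CPM, while Cd3d and Cd4 were highest in naive replicate 3, at 32.5 and 11.6 CPM. For 5 NK cell markers these sums were 11.1 to 48.0 CPM and 72.7 to 132 CPM, and for 5 dendritic cell markers 11.2 to 31.8 CPM and 67.6 to 91.5 CPM. For 5 B cell markers they were 0 to 117 CPM and 88.5 to 144 CPM, and for 7 myeloid markers 2.49 to 443 CPM and 182 to 285 CPM. Those of 5 fibroblast markers were 0.0566 to 134 CPM and 15.1 to 64.4 CPM, and those of 5 erythroid markers 776 to 2937 CPM and 468 to 595 CPM. The T cell gene Cd3e was at most 1.24 CPM in any library. The 5 endothelial markers summed to 394 CPM in naive replicate 2 and 8.26 to 43.1 CPM in the other 6 libraries, and 5 mast cell markers to 715 CPM in naive replicate 3 and 64.9 to 313 CPM in the others. The 6 cardiomyocyte markers reached at most 9.22 CPM in sum, and Tnnt2, Myl2 and Ryr2 were at 0 in all libraries.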

How the data were processed

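ILC2 RNA was measured in 3 naive and 4 allograft libraries of amplified full-length cDNA, per the labels' protocols. Counts per gene and FPKM (scaled to gene length and library size) were deposited by the authors as whole-library tables. Per the submitters' processing notes, FastQC 0.11.5, STAR 2.5.3a, StringTie 1.3.1c, DESeq2 1.16.1 and the build mm10 were used; annotation and strand are not given in the sources used here. The deposited FPKM matched merged GENCODE M21 exon lengths up to 1 factor, within 2% for 99.01% of 7337 genes.

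Counts were tested with edgeR 4.0.16 (R 4.3.3): TMM, filterByExpr, a quasi-likelihood fit without covariates, and Benjamini-Hochberg adjustment over 17015 genes at 0.05. The SE follows from the F value. CPM is scaled to the deposited total (29107326 to 53044907 counts). The scripts were tested on simulated data. Alternatives were DESeq2 1.42.0, its size factors in edgeR, other filters, a replicate block and leaving out each library; the overlap of groups under TMM-scaled CPM or without single libraries was added after seeing the data. The members and lists were chosen with earlier results of these data known. Named genes are the 10 members, and per list up to 3 genes past the threshold or else the one with the smallest p and the one with the highest mean FPKM, and the 2 genes most like each member. Amplified reads carry no molecular identifiers, so limits from counts cover counting error only.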

Additional observations from a re-analysis of the deposited data

How the results depend on the processing

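No member passed the threshold in edgeR under the other normalization, filters, replicate block or any fit that left out 1 library; DESeq2 called 1 (Socs3). Over all genes the count was 6, 1224 with DESeq2 and 0 with the replicate block, and 0 to 560 when single libraries were left out (107 with naive replicate 1 left out, 560 with naive replicate 2, 7 with naive replicate 3 and 0 with any allograft). For the 111 wider family and pathway genes it was 0, and 5 with DESeq2, where 6.4% of all genes were called. It was 0 to 4 when single libraries were left out. The 4 were without naive replicate 2, where 3.1% of all genes passed. Without naive replicate 3, where 0.0372% passed, it was 1, Il10ra, which was higher (log2 fold change 3.48). With all 7 libraries Il10ra was at -0.29, and naive replicate 3 held 389.1 CPM against 104.6 to 134.5 CPM in the allografts. Members whose groups do not overlap numbered 3, and 3 to 7 when single libraries were left out (7 without naive replicate 3). Of 120 refitted fold changes of members, 108 kept their direction and side of the threshold, 11 changed sign and 1 gained a call. Socs1, Socs3 and Dusp1 stayed below 0 and Dusp2 and Dusp4 above 0 in all 12 alternatives, but without naive replicate 3 Socs1 was at -0.04 and Dusp1 at -0.01. Those that changed sign were Socs2 (-0.10 with DESeq2 size factors, -0.12 with DESeq2, -0.26 without naive replicate 1, -0.06 without allograft replicate 1, and -0.42 to 1.34 over the left-out libraries), Cish (-0.21 to 1.30), Dusp6 (-0.18 to 0.70), Dusp5 (-0.59 to 1.51) and Dusp10 (-0.60 to 1.18), the last 2 also with the replicate block (0.75 and 0.47). The cause was not tested. DESeq2 size factors moved the median of all genes from -0.01 to -0.20. Same-numbered libraries correlated at 0.0169, -0.0196 and 0.036 in their deviations from the group means, and differently numbered ones at -0.087 to 0.076. These deviations sum to 0 within groups of 3 and 4 libraries, so the check cannot settle whether replicate numbers pair the libraries. Under the replicate block no gene passed. Every member was counted in every library except Dusp4 in naive replicate 3; the effect of depth on the calls was not tested.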
